A study of Homo sapiens with 6 samples.

Results

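Genes of the NRF2 pathway and of antioxidant defence were read from arrays of U87-2M1 glioma cells transduced with a miR-10b decoy vector and of their counterparts given a control decoy vector. The set was a named list of 45 genes, grouped here by known function and drawn up with earlier results of these data in view. Each gene was read from the probe set with the highest mean signal over all arrays among those that carried its symbol alone. By this rule 43 genes had a probe set, out of 19775 genes on the array, and all 43 passed the filter on dim genes that left 13842. AKR1B1 and PRDX5 were not analysed here.

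U87-2M1 is an invasive subline of the human glioma line U87, recovered after an experimental lung metastasis assay in animals and then grown in culture. There were 3 arrays of cells transduced with a baculoviral control decoy vector and 3 of cells transduced with a baculoviral miR-10b decoy vector, all from passage 4 and kept in hypoxia. Both groups carry a baculoviral vector, an insect virus vector that delivers a gene into mammalian cells, and untransduced cells were not analysed here. A decoy holds binding sites that should occupy a microRNA, and whether miR-10b was bound was not measured here. Separate cultures are not named in the labels, so the spread behind each p-value is that of these arrays and may be technical.

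NRF2, encoded by NFE2L2, is a transcription factor that is held in the cytoplasm and sent for degradation by its adaptor KEAP1. When electrophiles or oxidants modify KEAP1, NRF2 enters the nucleus, pairs with a small MAF protein and binds antioxidant response elements. The genes it is known to drive make glutathione, reduce thioredoxin, detoxify quinones and carbonyls, supply NADPH and export conjugates. Peroxiredoxins, superoxide dismutases, glutathione peroxidases and catalase clear superoxide and peroxides, and only some of them are strong NRF2 targets. Glioma cells are known to rely on glutathione and thioredoxin for survival under oxidative stress.

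Promoters of the genes are shown because an antioxidant response element is the sequence through which NRF2 is known to act. RefSeq windows (GRCh38.p14) of 300 bases, from 250 before to 50 after an annotated start, were found for 37 of the 45 genes. They were searched on both strands for TGACNNNGC, the core of the element, and for TGACTCAGC, a form contained in it. The core occurred in at least 1 window of 12 of the 37 genes (32.4%), against 16.1% of all 27305 genes with such windows, or 25.5% of 51 windows against 13.3% of 35116. The list holds many known NRF2 targets, so these shares are a description and no test is given. The split by result that follows leaves out AKR1B1 and PRDX5, which had windows but were not analysed on the arrays. Among the 12 genes that rose below, 6 had a match (KEAP1, MAFF, CBR1, GCLM, TXNRD1 and GSTO1), as did 6 of 18 that did not pass (GPX2, GSTP1, MGST1, PGD, ME1 and EPHX1) and 0 of the 5 that fell and had a window. The windows of GCLM, KEAP1, TXNRD1 and GSTP1 follow, with the matches in capitals, 5′ to 3′ on the gene's strand, and a match on the opposite strand is printed as its reverse complement.
GCLM (chr1:93909381-93909680, - strand): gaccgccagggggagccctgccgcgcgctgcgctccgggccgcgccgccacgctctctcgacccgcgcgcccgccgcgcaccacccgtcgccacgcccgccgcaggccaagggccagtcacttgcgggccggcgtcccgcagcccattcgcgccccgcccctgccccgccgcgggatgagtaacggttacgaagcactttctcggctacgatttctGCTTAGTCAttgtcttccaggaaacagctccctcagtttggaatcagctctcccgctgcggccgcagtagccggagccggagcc
KEAP1 (chr19:10502722-10503021, - strand): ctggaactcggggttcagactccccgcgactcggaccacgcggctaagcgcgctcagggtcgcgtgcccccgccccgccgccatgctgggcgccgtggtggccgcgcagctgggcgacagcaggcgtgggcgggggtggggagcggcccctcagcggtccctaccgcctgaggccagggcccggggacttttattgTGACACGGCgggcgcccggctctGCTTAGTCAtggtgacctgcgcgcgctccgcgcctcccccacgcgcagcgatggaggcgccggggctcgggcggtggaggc
TXNRD1 (chr12:104215529-104215828, + strand): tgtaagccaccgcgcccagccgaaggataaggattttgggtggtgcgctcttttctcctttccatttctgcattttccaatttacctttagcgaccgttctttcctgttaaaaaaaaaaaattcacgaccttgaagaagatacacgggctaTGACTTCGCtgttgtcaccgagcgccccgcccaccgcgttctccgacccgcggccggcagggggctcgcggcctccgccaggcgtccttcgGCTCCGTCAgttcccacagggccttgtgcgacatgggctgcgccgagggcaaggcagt
GSTP1 (chr11:67583562-67583861, + strand): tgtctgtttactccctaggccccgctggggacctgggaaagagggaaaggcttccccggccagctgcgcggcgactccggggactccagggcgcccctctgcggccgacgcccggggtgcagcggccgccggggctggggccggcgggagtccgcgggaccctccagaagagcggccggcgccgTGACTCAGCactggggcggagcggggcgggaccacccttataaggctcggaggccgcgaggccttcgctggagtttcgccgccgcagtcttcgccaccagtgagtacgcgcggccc
GCLM and KEAP1 both carried the same match, TGACTAAGC read on the opposite strand, with its first capital at position -34 of GCLM and -31 of KEAP1 relative to the annotated start. In the window shown TXNRD1 had TGACTTCGC at -99 and TGACGGAGC on the opposite strand at -8. Another of its windows (chr12:104286782-104287081, not shown) held TGACAAAGC on the opposite strand at -102. GSTP1 held the exact form TGACTCAGC at -66, which in these windows only ME1 shared among the 37 genes. A match is a description of letters, and no match says only that they are not in the window.

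With the miR-10b decoy 12 of the 43 genes rose and 6 fell, while 25 did not pass the test. The largest rises were those of SRXN1 (log2 difference 1.08), MAFG (0.93), TXNRD1 (0.62), OSGIN1 (0.60) and GCLM (0.58), followed by AKR1C1, KEAP1, CBR1, GCLC, MAFF, TXNIP and GSTO1 at 0.41 or less. The falls were AKR1B10 (-0.72), AKR1C3 (-0.72), catalase CAT (-0.57) and the peroxiredoxins PRDX3 (-0.52), PRDX4 (-0.31) and PRDX2 (-0.17). The test was limma's, two-sided, on quantile-normalized log2(signal + 7), with p-values adjusted by Benjamini-Hochberg over all 13842 genes and a threshold of 0.05. Genes that passed made up 27.9% of the set upward, against a background of 16.6% of all genes, and 14.0% downward, against 17.4%. In both directions together the share was 41.9%, against 34.0%. These comparisons depend on how dim genes are filtered. With the cut-off for dim genes moved from percentile 30 to 50, the background rose to 21.9% upward and 23.4% downward. Of the set 38 genes were then tested, and the same 12 rose and 6 fell. Neither the set nor the further gene lists below were matched to the background for brightness, so an excess over it may partly reflect brighter genes. The median log2 difference was -0.02 over the set and -0.02 over all genes tested, with 21 genes of the set above 0 and 22 below. Arrays of the groups did not overlap for 19 of the 43 genes (44.2%), against 46.4% of all genes, with the decoy above in 12 genes (27.9%, against 22.3%) and below in 7 (16.3%, against 24.1%). With the signals as deposited and not normalized between arrays, only SRXN1, MAFG, TXNRD1 and GCLM still rose, 4 genes, while the same 6 fell. On that scale control replicate 3 is brighter than the others, and without it 9 rose and 6 fell. With per-gene variances and no moderation, KEAP1, AKR1C1, GCLC, OSGIN1, TXNIP, AKR1C3 and PRDX2 no longer passed (adjusted p from 0.055 to 0.18), which left 7 rises and 4 of the 6 falls, and SOD3 passed downward.

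**Figure D1:**
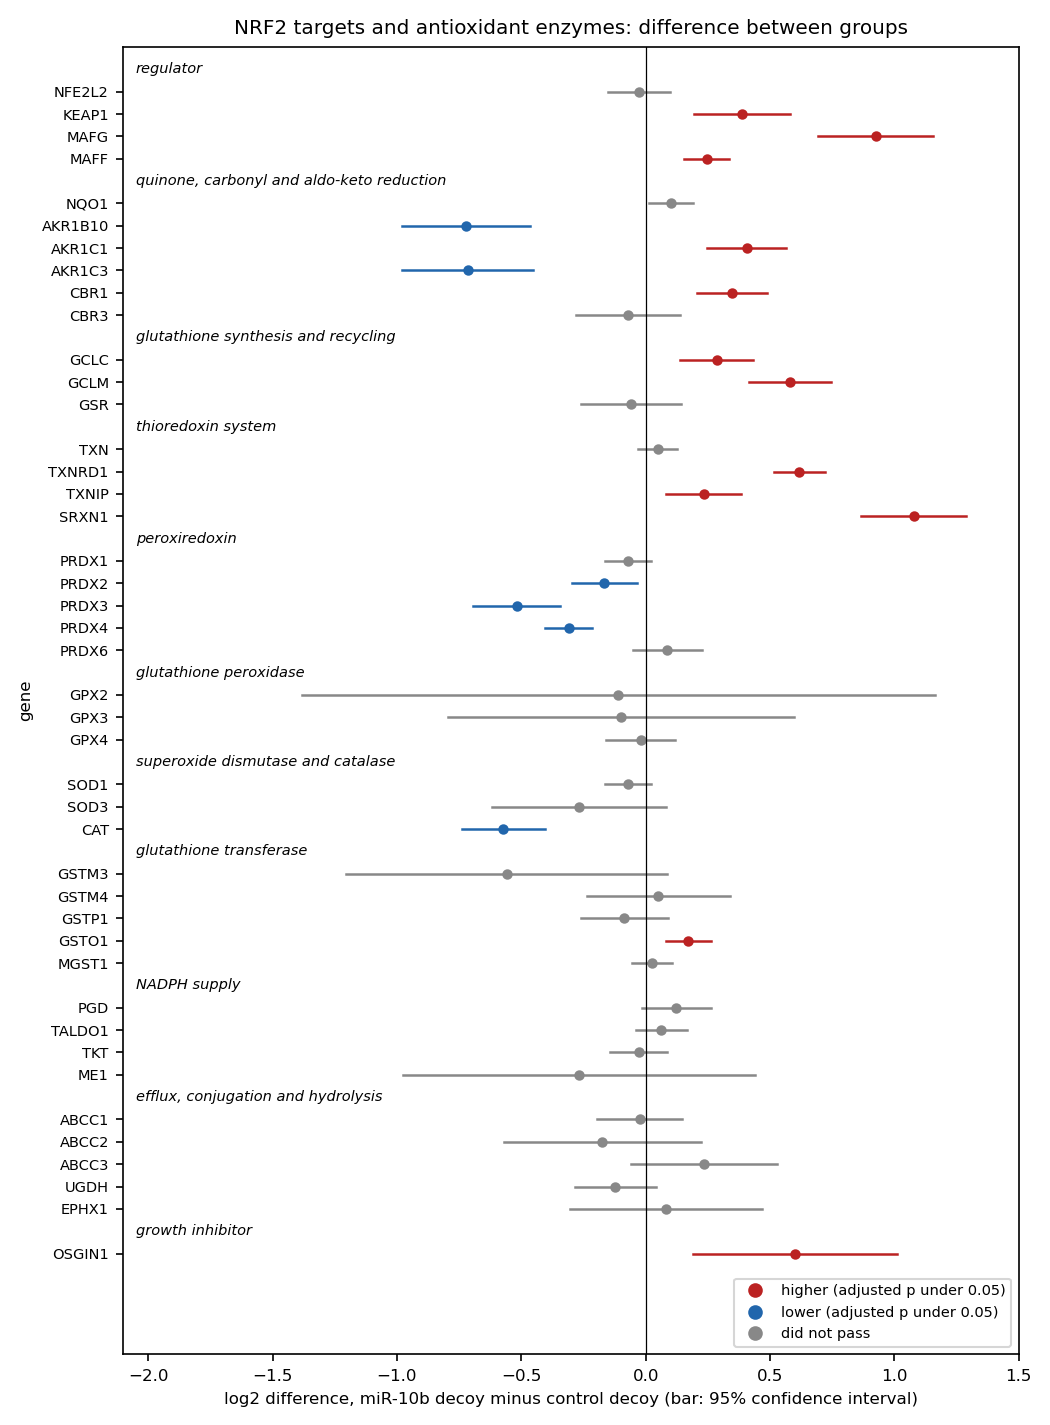
Log2 difference, miR-10b decoy minus control decoy (3 arrays each), for the 43 genes grouped by role, with bars for the 95% confidence interval of limma's fit. Red genes rose and blue genes fell, and SRXN1 at 1.08 and AKR1B10 at -0.72 mark the ends.

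**Figure D2:**
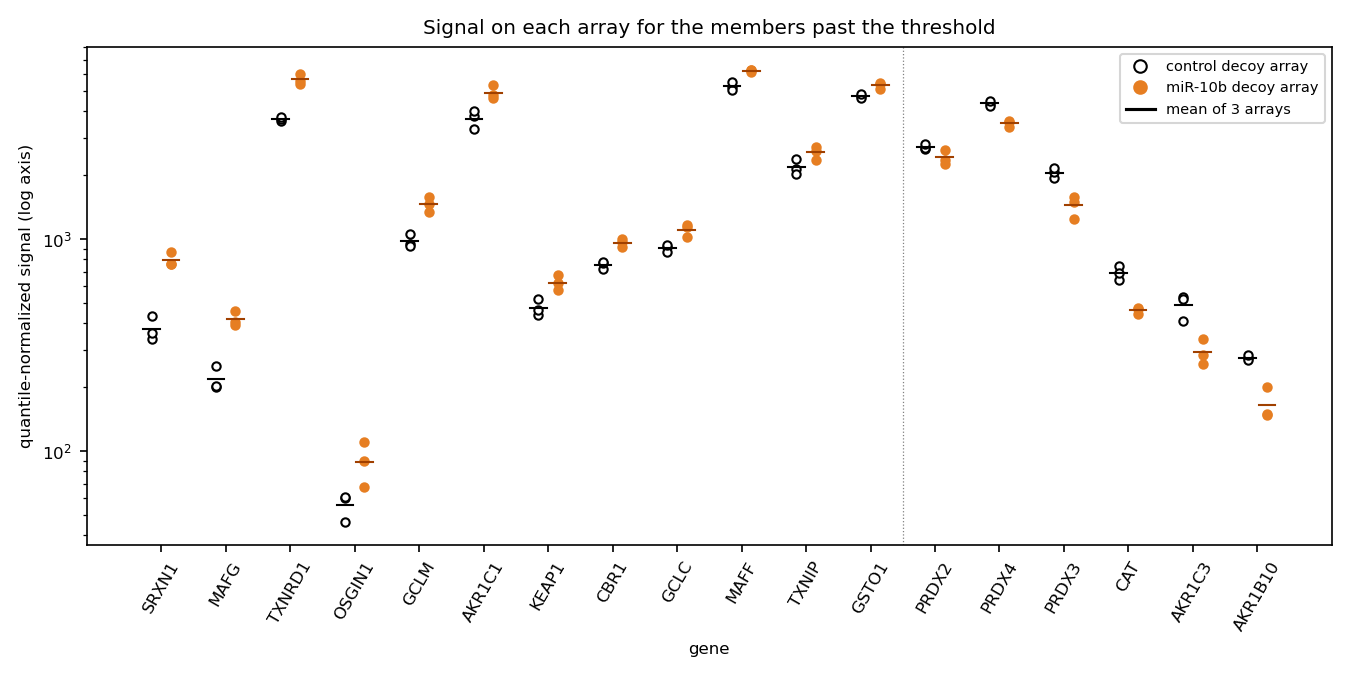
Quantile-normalized signal on a log axis for each of the 6 arrays, for the 12 genes that rose (left of the dotted line) and the 6 that fell, with bars for the means of 3 arrays. Open control points and filled decoy points overlap for TXNIP alone.

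The arrays differed in brightness and in an RNA quality measure. The median deposited signal was 32.7 on control replicate 3 and between 23.4 and 26.8 on the others, and the quantile step removed this difference. Actin probe sets at the 3' and 5' ends of the transcript, whose ratio grows as RNA breaks down, gave ratios of 5.73 ± 0.47 for the control group and 8.54 ± 1.77 for the decoy group (SD, n = 3; two-sided exact permutation test, p = 0.1, and 3 against 3 arrays cannot give less). The GAPDH ratio was 0.945 ± 0.019 and 0.943 ± 0.007. The part of RNA quality in the results below was not tested. Among 5 glioma and mesenchymal markers tested, vimentin (VIM) was bright and did not pass, at 9901 ± 101 in controls. CD44 (0.01, adjusted p = 0.87) and the dim SOX2 (-0.44, adjusted p = 0.37) did not pass either. Fibronectin (FN1, -0.13, adjusted p = 0.030) and nestin (NES, -0.38, adjusted p = 0.0078) fell. The astrocyte markers GFAP and S100B lay under the filter level of 15.6 on every array. OLIG2 was left out by the filter, with signals of 0.80, 5.21 and 7.75 in controls and 19.6, 19.6 and 29.8 with the decoy. Of 9 markers of other cell types measured, 3 lay under the filter level on all arrays, and PECAM1 fell (142 ± 5.88 to 106 ± 0.216, SD, n = 3). SYT1, the brightest of them, had 228 ± 10.1 and 190 ± 7.70 (SD, n = 3) and did not pass (-0.25, adjusted p = 0.0503). MBP had 0.42 and did not pass (adjusted p = 0.27). The signals summed over the list, most of them from SYT1 and PECAM1, ran from 454 to 459 in controls and from 364 to 398 with the decoy. Their part in the results was not tested. In a bulk sample fewer cells of a type and less RNA per cell cannot be told apart.

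Among the regulators, the partners MAFG and MAFF and the inhibitor KEAP1 rose while NRF2's own transcript did not pass. NFE2L2 signals were 2330, 2387 and 2471 in controls and 2212, 2330 and 2531 with the decoy, overlapping groups with a log2 difference of -0.03 (95% interval -0.15 to 0.10, adjusted p = 0.77). MAFG, a small MAF protein that pairs with NRF2 on DNA, had 251, 201 and 201 in controls and 405, 392 and 459 with the decoy. All 3 decoy arrays lay above all 3 controls, and the log2 difference was 0.93 (SE 0.11, adjusted p = 5.8e-05). Its other probe set, dim in controls, had 2.18 in the same direction. KEAP1 had 438, 523 and 460 in controls and 675, 573 and 617 with the decoy. That separation amounted to 0.39 on the log2 scale (SE 0.09, adjusted p = 0.0052). For MAFF, another small MAF protein, the control signals were 5220, 5052 and 5475 and the decoy signals 6141, 6287 and 6239. The decoy arrays all exceeded the controls, by a small 0.25 (SE 0.04, adjusted p = 0.00076), and its second probe set had 0.37. As deposited, KEAP1 (0.32, adjusted p = 0.069) and MAFF (0.09, adjusted p = 0.64) did not pass.

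The rate-limiting enzyme of glutathione synthesis rose in both of its subunits. GCLM, the modifier subunit of glutamate-cysteine ligase, had signals of 941, 924 and 1057 in controls and 1334, 1468 and 1577 with the decoy. The groups were well apart, with a log2 difference of 0.58 (SE 0.08, adjusted p = 0.00014). The other GCLM probe sets had 0.44 and, in a dimmer one, -0.20, and with the mean of the 3 the call ended (0.27, adjusted p = 0.078). GCLC, the catalytic subunit, had 914, 871 and 931 in controls and 1016, 1143 and 1160 with the decoy. Its groups did not overlap either, and the difference was 0.29 (SE 0.07, adjusted p = 0.0066). Here too 1 of 3 probe sets, dim at 35.1 in controls and 20.8 with the decoy, went the other way (-0.58), so that the mean of all 3 had a reversed value of -0.020 (adjusted p = 0.90), and as deposited GCLC had 0.20 (adjusted p = 0.28). Glutathione reductase, GSR, which returns oxidised glutathione to its reduced form, ranged from 442 to 514 in controls and from 431 to 521 with the decoy and did not pass (-0.06, adjusted p = 0.65).

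In the thioredoxin system the reductase and sulfiredoxin rose, while thioredoxin itself did not pass. SRXN1 encodes sulfiredoxin, which repairs over-oxidised peroxiredoxins. Its signals were 432, 338 and 359 in controls and 761, 763 and 872 with the decoy. Every decoy array lay far above the controls, the largest log2 difference of the set at 1.08 (SE 0.10, adjusted p = 1.0e-05). TXNRD1, the cytosolic thioredoxin reductase, a selenoprotein, had 3581, 3677 and 3767 in controls and 5394, 5576 and 5972 with the decoy. This was the smallest p of the set, with a difference of 0.62 (SE 0.05, adjusted p = 3.1e-06). Its only other probe set lay under the filter level at a signal of 2.33 in controls, and averaging it in ended the call (0.25, adjusted p = 0.11). TXN, thioredoxin, was bright in both groups, at 7593 ± 192 and 7855 ± 123 (SD, n = 3), and did not pass (0.05, adjusted p = 0.33). TXNIP, a protein that binds and inhibits thioredoxin, had 2376, 2128 and 2030 in controls and 2361, 2607 and 2711 with the decoy. The groups overlapped through decoy replicate 1, and the rise of 0.23 (SE 0.07, adjusted p = 0.021) ended when control replicate 2 or 3 or decoy replicate 2 or 3 was left out (adjusted p from 0.069 to 0.078), and as deposited (0.07, adjusted p = 0.72).

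Quinone and carbonyl reductases went both ways. NQO1, the quinone reductase often used as an NRF2 readout, had signals of 4735, 4704 and 4613 in controls and 5127, 4869 and 5094 with the decoy. All decoy arrays were above the controls, yet the small difference of 0.10 (SE 0.04) missed the threshold (adjusted p = 0.068), and as deposited the value was -0.06. The other NQO1 probe sets had 0.38 and 0.15, and the mean of the 3 passed (0.21, adjusted p = 0.0041). CBR1, a carbonyl reductase, had 718, 767 and 779 in controls and 969, 917 and 998 with the decoy. It rose by 0.35 (SE 0.06, adjusted p = 0.0016), with 0.26 as deposited (adjusted p = 0.13), while its relative CBR3 did not pass (-0.07, adjusted p = 0.62).

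The aldo-keto reductases split. AKR1C1 had 3287, 3806 and 3992 in controls and 4752, 4613 and 5305 with the decoy. The groups did not overlap and the difference was 0.41 (SE 0.07, adjusted p = 0.0011), or 0.24 as deposited (adjusted p = 0.16). Its probe set carries the suffix _x_at, which marks possible cross-hybridisation, and the reading may include the near-identical AKR1C2, whose own _x_at probe set had 0.54. A probe set of AKR1C1 without that suffix, at 47.3 in controls and 96.3 with the decoy, had 0.93, and another, at 28.8 and 27.1, had -0.12. AKR1C3, a prostaglandin and steroid reductase, went the other way, with 408, 531 and 518 in controls and 339, 283 and 258 with the decoy. It fell by 0.72 (SE 0.12, adjusted p = 0.00081), below every control. AKR1B10, a retinal and aldehyde reductase, had 274, 269 and 282 in controls and 148, 149 and 199 with the decoy. It too lay below every control, with a difference of -0.72 (SE 0.12, adjusted p = 0.00065). Both falls passed under all 3 scalings, and each gene has a single probe set.

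**Figure D3:**
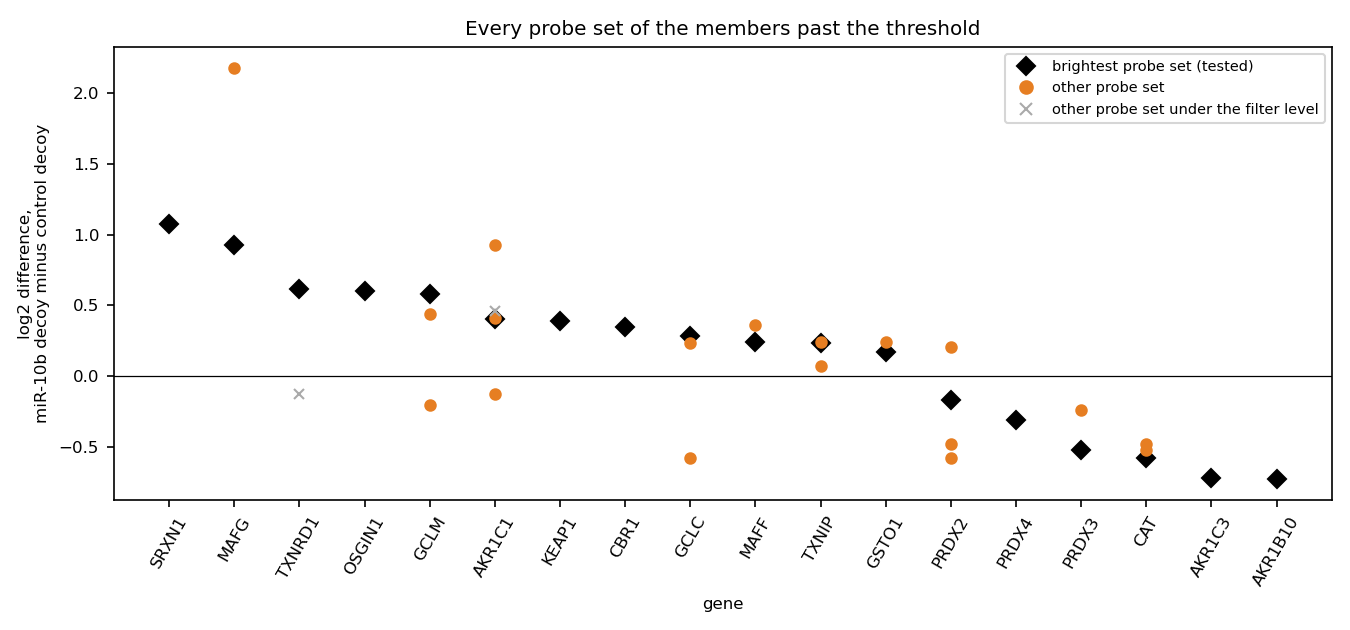
Log2 difference, miR-10b decoy minus control decoy, for every probe set of the 18 genes that passed, with a diamond for the brightest, which was tested, a filled circle for the others and a cross for those under the filter level. Of 18 further probe sets above that level 14 had the sign of the brightest and 4 had the opposite sign.

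The peroxiredoxins and catalase of the set fell or did not pass. PRDX3, the mitochondrial peroxiredoxin, had 1947, 2063 and 2153 in controls and 1245, 1568 and 1499 with the decoy. All decoy arrays lay below the controls, at a difference of -0.52 (SE 0.08, adjusted p = 0.00045). PRDX4, the peroxiredoxin of the endoplasmic reticulum, had 4337, 4254 and 4488 in controls and 3581, 3578 and 3387 with the decoy. Its fall was smaller and tight, at -0.31 (SE 0.04, adjusted p = 0.00026). CAT, the peroxisomal catalase, had 748, 637 and 687 in controls and 475, 466 and 444 with the decoy. The difference was -0.57 (SE 0.08, adjusted p = 0.00018), and its other probe sets had -0.52 and -0.47. Cytosolic PRDX2 stood at the threshold, with 2647, 2696 and 2802 in controls against 2639, 2364 and 2263 (-0.17, SE 0.06, adjusted p = 0.049). The other PRDX2 probe sets, all dimmer, had -0.48, -0.58 and, for an _x_at probe set, 0.21. Its call ended under 13 of 19 alternatives, among them leaving out any array but decoy replicate 1 (adjusted p from 0.067 to 0.15). The cytosolic PRDX1, a known NRF2 target, had 7937 ± 330 and 7549 ± 277 (SD, n = 3) and did not pass (-0.07, adjusted p = 0.22), nor did PRDX6 (0.09, adjusted p = 0.32), which also has phospholipase activity.

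The superoxide dismutases SOD1 and SOD3 and the glutathione peroxidases GPX2, GPX3 and GPX4 did not pass. The copper-zinc enzyme SOD1 was among the brightest, at 8420 ± 351 and 8012 ± 301 (SD, n = 3, log2 difference -0.07, 95% interval -0.16 to 0.02). The secreted SOD3, whose only probe set is of the _x_at kind, was dim, at 57.1, 59.9 and 59.8 in controls and 48.7, 44.5 and 50.1 with the decoy. Its groups did not overlap, but the difference of -0.27 did not pass (adjusted p = 0.23), except without the intensity trend (adjusted p = 0.037) or without moderation (adjusted p = 0.036). GPX4, the selenoprotein that reduces lipid peroxides, had 3187 ± 263 and 3138 ± 169 (SD, n = 3, interval -0.16 to 0.12). GPX2 and GPX3 had mean signals between 15.2 and 24.6, near the filter level, and intervals as wide as -1.38 to 1.16, so little can be read from them.

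Of the 5 glutathione transferases in the set, enzymes that couple glutathione to electrophiles, GSTO1 alone passed. It had 4697, 4628 and 4817 in controls and 5379, 5442 and 5107 with the decoy. The difference was 0.17 (SE 0.04, adjusted p = 0.0075), with 0.25 in a second probe set, but as deposited the value was -0.0055 (adjusted p = 0.98). GSTP1, the main transferase of many tumours, had 2238 ± 131 and 2117 ± 248 (SD, n = 3), and MGST1, a microsomal enzyme, 8356 ± 290 and 8492 ± 105 (SD, n = 3), with intervals of -0.26 to 0.09 and -0.06 to 0.10. GSTM4, read from an _x_at probe set, had 0.05 and GSTM3 -0.56 (adjusted p = 0.17). The GSTM3 reading was dim, and its second probe set had 0.41.

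The pentose phosphate and malic enzyme genes of the set did not pass. PGD of the oxidative pentose phosphate pathway had 0.12 (95% interval -0.02 to 0.26) and passed only after centring on the array median (0.21, adjusted p = 0.045). TALDO1 and TKT of its non-oxidative branch had 0.06 (-0.04 to 0.17) and -0.03 (-0.14 to 0.09). The malic enzyme ME1 was near background, at 18.5 ± 3.19 and 14.3 ± 3.76 (SD, n = 3).

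The export and conjugation genes of the set did not pass either. The glutathione-conjugate exporters ABCC1, ABCC2 and ABCC3 had -0.02, -0.17 and 0.23 in their brightest probe sets, with 95% intervals that stayed between -0.57 and 0.53. Dimmer probe sets above the filter level had -0.43 for ABCC1 and 0.54, -0.05 and 0.18 for ABCC3. UGDH, which makes UDP-glucuronic acid, had -0.12 and the epoxide hydrolase EPHX1 0.08. OSGIN1, an oxidative stress-induced growth inhibitor, was the last gene that rose. It was dim, with 46.2, 60.2 and 60.3 in controls and 110.0, 89.4 and 67.5 with the decoy. The groups lay close together and the difference of 0.60 (SE 0.19, adjusted p = 0.027) ended without control replicate 1 or decoy replicate 1 or 2 (adjusted p from 0.077 to 0.12) and as deposited (0.47, adjusted p = 0.074).

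**Figure D4:**
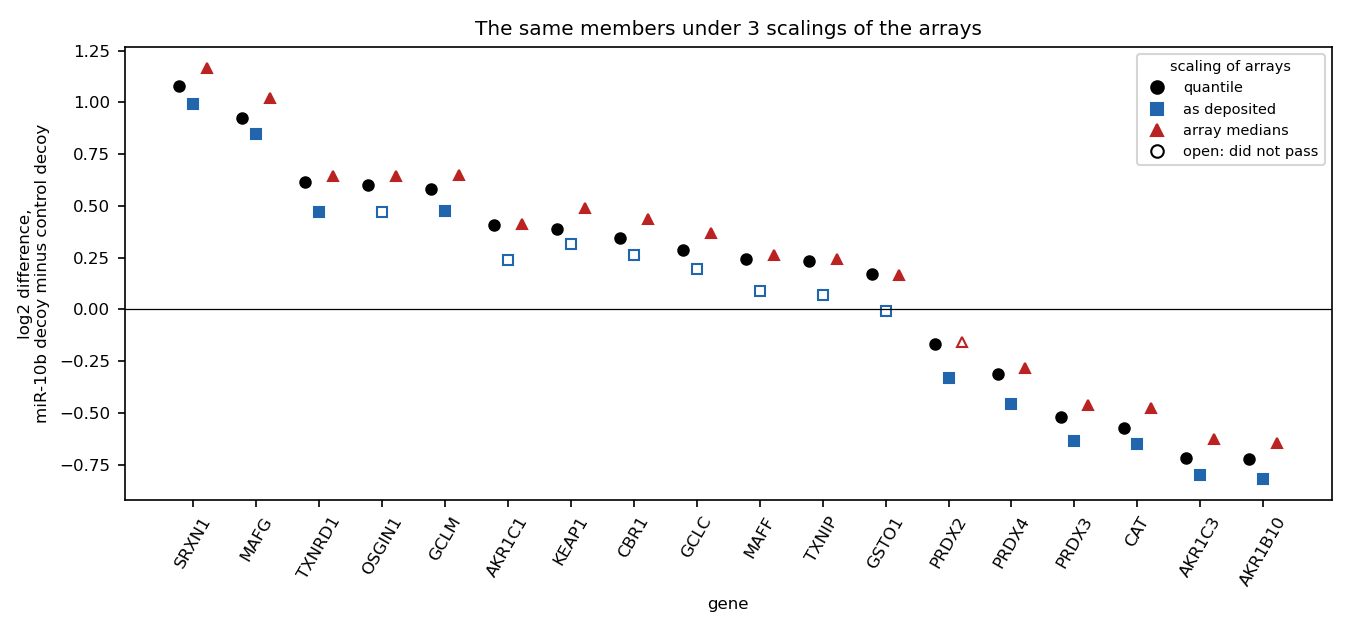
Log2 difference, miR-10b decoy minus control decoy, of the 18 genes under quantile normalization (black), as deposited (blue) and after centring on array medians (red), with open symbols where the test was not passed. As deposited 4 of the 12 rises and all 6 falls passed, and after centring PRDX2 did not.

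Other genes of the pathway were read from lists of further regulators and further reported targets. Of 9 further regulators tested 3 rose (33.3%, against a background of 16.6%) and 0 fell (against 17.4%). Only 1 rose when low probe sets were kept, when the probe sets of a gene were averaged, without the intensity trend, without moderation, or at a fold threshold of 1.2. SQSTM1 encodes p62, which competes with NRF2 for KEAP1, and had 2567, 2481 and 2639 in controls and 6089, 6038 and 6682 with the decoy. It rose by 1.29 on the log2 scale (SE 0.05, adjusted p = 2.4e-08). BACH1, a repressor at antioxidant response elements, and NFE2L1, a relative of NRF2, had smaller rises of 0.46 (adjusted p = 0.022) and 0.22 (adjusted p = 0.022). BACH1's ended without control replicate 1 or 2 or decoy replicate 2 or 3 (adjusted p from 0.072 to 0.097), and that of NFE2L1, whose probe set is of the _x_at kind, without control replicate 3 or decoy replicate 1 (adjusted p from 0.073 to 0.080) and as deposited (0.06, adjusted p = 0.77).

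Of 38 further targets and antioxidant genes tested 7 rose (18.4%, against 16.6% of all genes) and 12 fell (31.6%, against 17.4%), with a median log2 difference of -0.12. The number that fell was 8 after centring on the array median, with the mean of all probe sets or without control replicate 2, and a fold threshold of 1.2 left 4 higher and 0 lower. HMOX1, heme oxygenase, rose from 1419 ± 50.5 to 5804 ± 937 (SD, n = 3), a difference of 2.02 (SE 0.09, adjusted p = 5.5e-08), beyond any of the 43 genes. SLC3A2 and SLC7A11, the subunits of the cystine importer that feeds glutathione synthesis, rose by 0.95 (SE 0.08, adjusted p = 9.2e-06) and 0.78 (SE 0.10, adjusted p = 0.00013). The stress sensor SESN2 rose by 0.59 (SE 0.09, adjusted p = 0.00036). These 4 genes were named because they had the smallest p of the list. The 12 that fell included ABCC5 (-0.35, adjusted p = 0.013), PIR (-0.30, adjusted p = 0.013) and BLVRA (-0.29, adjusted p = 0.0044).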

How the data were processed

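Total RNA from 6 samples was measured on 6 arrays. The deposited values are linear signal intensities for 54675 probe sets, and MAS5 is named in the submitters' processing notes; which version, and to what target signals were scaled, is not given in the sources used here. Groups and replicate numbers came from the sample titles. Of the probe sets 41097 carried 1 symbol, 1801 several and 11777 none in the platform annotation; 62 control probe sets stayed out, which left 41091. Of these, 41037 matched a RefSeq gene (GRCh38.p14) by Entrez identifier and 0 symbols were updated.

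Deposited intensities were turned into log2(signal + 7), which understates the change of dim genes, and quantile-normalized over all probe sets with limma 3.58.1 (R 4.3.3), because array medians ran from 23.4 to 32.7. Signals in the text are these values turned back to the linear scale. Genes under the 30th percentile of mean deposited signal, 15.6, were left out. limma's lmFit and eBayes with an intensity trend compared the groups, with 7.68 prior and 4 residual degrees of freedom. The per-probe-set values come from the same fit over all 41091 probe sets, with no filter. The number of arrays limits the precision, and detection calls were not used here.

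All 43 genes were described, with values on every array for those past the threshold and, whatever their values, for NFE2L2, KEAP1, MAFG, MAFF, NQO1, GCLM, TXNRD1 and SRXN1. From each of the 2 lists of further genes the 4 that passed with the smallest p were to be named, with HMOX1 and SLC7A11 whatever their values; another gene fixed by name is not reported here. The members and lists were chosen with earlier results of these data known. Replicate numbers were checked for pairing: deviations of same-numbered arrays correlated with r between -0.03 and 0.03. With 3 arrays per group such values cannot settle whether the arrays were paired, and the main test takes no pairing into account. The alternatives were 2 scalings, 2 offsets (1 and 32), 2 filters, 2 rules for probe sets, 2 variance models, a fold threshold of 1.2, the replicate number as a block, each array left out, and, added after the data were seen, deposited signals without control replicate 3. On simulated data with 13842 genes tested, 67 genes were changed 1.5-fold, 67 were changed 2-fold and 66 were changed 3-fold. The noise was the spread within groups of the log2 signals as deposited. The test found 32.8% of 1.5-fold changes, 65.7% of 2-fold changes and 89.4% of 3-fold changes, and 6.02% of its calls were false. In the real data 34.0% of all genes passed, far more than were changed in the simulation, so its rates need not hold there.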

Additional observations from a re-analysis of the deposited data

How the results depend on the processing

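Under quantile normalization 2298 of all genes rose and 2402 fell. The numbers higher, as deposited, were 1094 of all genes and 4 of the set, with 29.9% of all calls upward against 48.9%. Centring on array medians gave 62.2% upward. Where the mean of all probe sets was used, 1479 genes were higher and 1566 lower. Without moderation 1451 were higher, 1379 lower and 7 of the set higher. A fold threshold of 1.2 left 713 higher, 531 lower and 4 of the set higher, namely SRXN1, MAFG, TXNRD1 and GCLM, beside 4 lower. Without each array in turn the set held from 10 to 11 higher and from 5 to 6 lower, and all genes from 1873 to 2150 higher and from 1831 to 2147 lower. With the replicate number as a block 2222 genes were higher and 2336 lower, and in the set 12 and 5, PRDX2 no longer passing (adjusted p = 0.069); it changed no other call in the set. Among genes that had passed, the values that reversed were GCLC with the mean of all probe sets (-0.020) and GSTO1 as deposited (-0.0055). Of the 25 genes that had not passed, 17 took the other sign under at least 1 alternative, and 0 passed with it. SRXN1, MAFG, PRDX3, CAT and AKR1B10 kept their call under all 19 alternatives. The cause of these shifts was not tested. Dim genes such as GPX2, GPX3 and ME1 stood near the filter level, which limits what their values show.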

Other observations

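Antioxidant enzymes of mitochondria and of the endoplasmic reticulum are described here as a group chosen after their values were seen, so no test is given for it. Beside PRDX3, the mitochondrial superoxide dismutase SOD2 fell from 870 ± 75.1 to 671 ± 57.8 (SD, n = 3, log2 difference -0.37, limma adjusted p = 0.0050). The SOD2 reading rests on 1 probe set, the only probe set that carried its symbol alone. The mitochondrial thioredoxin TXN2 fell from 803 ± 17.4 to 688 ± 34.3 (SD, n = 3, -0.22, limma adjusted p = 0.022). GLRX2, a glutaredoxin with a mitochondrial form, went the other way, at 950 ± 67.9 and 1211 ± 64.2 (SD, n = 3, 0.35, limma adjusted p = 0.0025), and the mitochondrial thioredoxin reductase TXNRD2 did not pass (0.08, limma adjusted p = 0.69). Beside PRDX4, GPX8, a peroxidase of the endoplasmic reticulum, fell from 2908 ± 158 to 2333 ± 176 (SD, n = 3, -0.32, limma adjusted p = 0.0022). The falls of SOD2, TXN2 and GPX8 did not pass at a fold threshold of 1.2, where 0 genes of the further list were lower.

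Glutathione transferases outside the 43 genes were also picked as a group after their values were seen. Of 10 tested, 6 fell, against 17.4% of all genes, and 0 rose, against 16.6%. The 5 transferases of the set are not counted here, and of those 1 rose and 0 fell. At a fold threshold of 1.2 the falls no longer passed, as 0 genes of the further list were lower. Values lay below 0 for 9 of the 10, as for 52.7% of all genes. GSTA4, which conjugates the lipid peroxidation product hydroxynonenal, fell from 386 ± 11.0 to 268 ± 35.7 (SD, n = 3, -0.52, limma adjusted p = 0.0019). GSTT1 fell by 0.35 (limma adjusted p = 0.015), GSTK1 by 0.18 (limma adjusted p = 0.017) and MGST3 by 0.26 (limma adjusted p = 0.0028). GSTM1 and GSTM2 also fell, by 0.43 and 0.31, but both rest on probe sets marked for cross-hybridisation among the GSTM genes and cannot be told apart. GSTZ1 (-0.07), MGST2 (-0.33) and GSTM5 (-0.42) did not pass, and GSTO2 had 0.18 near the filter level.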
